A study of Mus musculus with 6 samples.

Results

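Transcripts of 10 lipid droplet and lipolysis genes were followed in whole livers of mice whose hepatocytes lacked AEG-1, the product of Mtdh. The genes were chosen by name and by role, with earlier results of these data known. They were the perilipins Plin2, Plin4 and Plin5, the CIDE proteins Cidea, Cideb and Cidec, the lipases Pnpla2, Pnpla3 and Mgll, and the lipase inhibitor G0s2. Each matched 1 row of the deposited count table through its GENCODE vM21 symbol, which gave 10 of 46983 rows. The knockout group, AEG-1DHEP, had the conditional AEG-1 allele deleted in hepatocytes, and the control group, AEG-1fl/fl, carried that allele without the deletion and is called wild type in the sample titles. Mice of both groups had a C57BL/6 background, were 12 weeks old, ate chow and received no treatment. The sources used here give neither the promoter that drives the recombinase nor the sex of the mice. The table held 3 columns per group, but control replicates 1 and 2 had the same value in each of the 46983 rows. The difference between them was below the sampling noise, so they entered as 1 sample, control replicate 1, which left 3 knockout and 2 control libraries. Which of the 2 mice the shared values came from cannot be told.

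Hepatocytes store triglyceride in cytosolic droplets, whose surface is covered by perilipins that shield the fat or tether the droplet to mitochondria. CIDE proteins sit where droplets touch and pass lipid between them, or hand lipid to nascent lipoproteins. Breakdown starts with the triglyceride lipase ATGL, encoded by Pnpla2, which G0S2 inhibits and ABHD5 activates, and ends with the monoacylglycerol lipase encoded by Mgll. Several of these genes, among them Plin2, Plin4 and Cidec, are known in mice as targets of PPAR nuclear receptors, and liver levels of Cidea, Cidec and Plin4 are known to be high in fatty mouse livers.

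The libraries held 29557477 to 33685670 counts in the knockout group, against 30819997 and 30965664 in the control group. The targeted gene went with the labels, with 89, 74 and 76 Mtdh counts in knockout libraries and 1529 and 1612 in control livers. The liver identity also went with the label, since the 10 hepatocyte markers summed to 92848, 94217 and 104225 CPM (counts scaled to library size with edgeR's TMM factors) in knockout livers and to 115796 and 85354 CPM in control livers. A transcript level in whole liver cannot separate fewer cells of a type from less RNA per cell. Markers of skeletal muscle, 8 genes, summed to 36.2 CPM in knockout replicate 1 and to 0.724 and 1.28 CPM in the other knockout libraries, against 0.722 and 0.982 CPM in control livers, and the part of this in any result was not tested.

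Of the 10 genes, 9 had a higher fitted level in knockout livers, and none passed the test over all genes. Their median log2 fold change, knockout over control, was 0.67, beside 0.01 over the 16441 genes that passed the low-count filter, and all 10 genes passed that filter. By edgeR's quasi-likelihood test, two-sided with Benjamini-Hochberg adjustment, each of the 10 had an adjusted p of 1.00. The same test called 0.00608% of all genes, which was Mtdh alone, and limma-voom and DESeq2 with all libraries likewise called 0 of the 10, where DESeq2 called 0.116% of all genes. At an unadjusted edgeR p under 0.05 there were 4 of the 10, namely G0s2, Mgll, Cidec and Plin4, all higher in knockout livers, beside 1.63% of all genes that were higher at that limit. All knockout libraries lay above both control libraries for 4 of the 10 genes, G0s2, Mgll, Cidec and Cideb, beside 8.15% of all genes. No gene of the 10 had all knockout libraries below the controls, beside 8.73% of all genes. With 2 control libraries these comparisons are wide, as the 95% intervals below show. Since the 10 genes were chosen with earlier results of these data known, the shares set beside them are a description and no test.

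**Figure D1:**
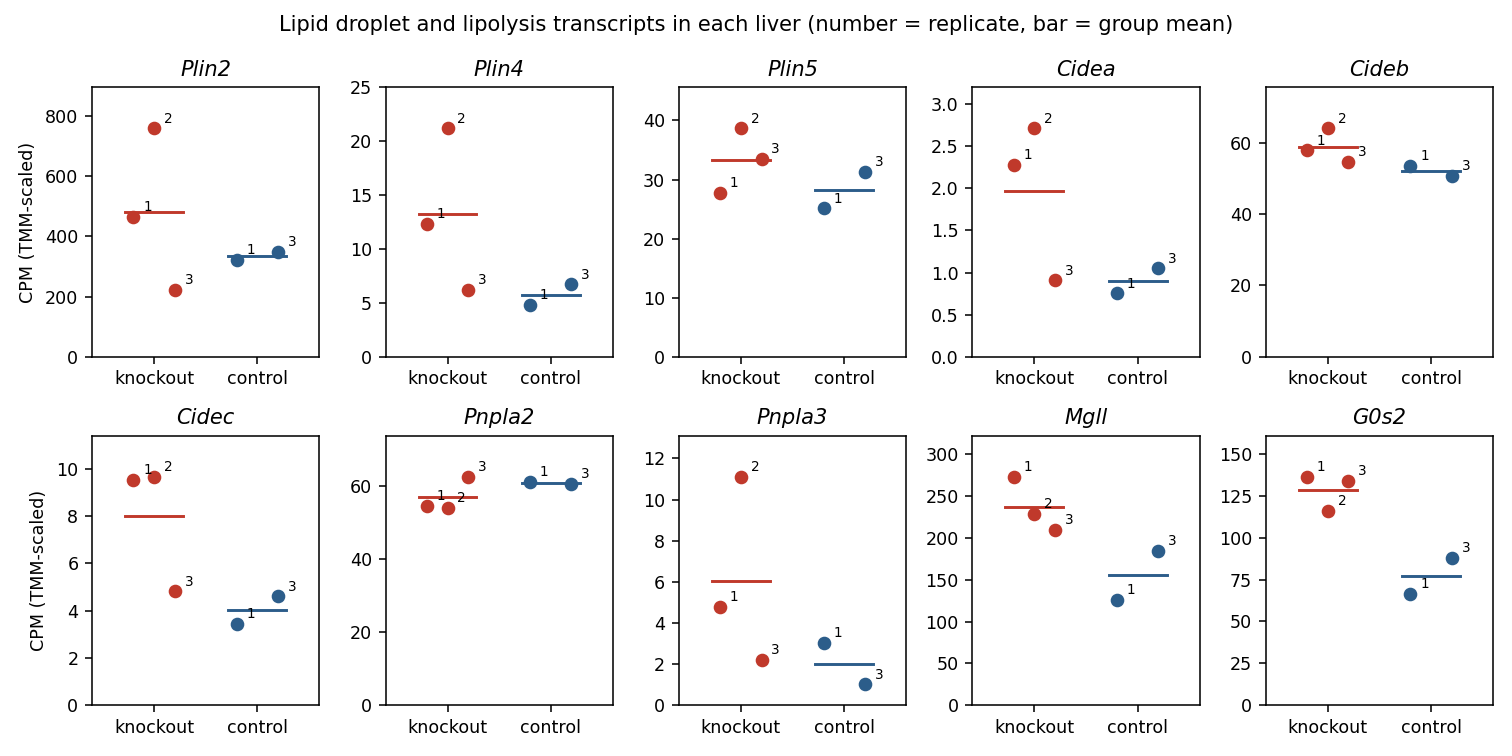
TMM-scaled CPM of each of the 10 genes (y axis, from 0, a scale per gene) in knockout livers on the left and control livers on the right; each point is a library with its replicate number, and the bar is the group mean. G0s2 lies between 116 and 136 CPM in knockout livers, against 66.6 and 87.8 CPM in control livers, whereas Plin2 spreads from 222 to 759.7 CPM within the knockout group alone.

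Compared per length, in TPM, which divides by gene length before scaling to the library, the genes kept nearly the same order in each library. G0s2 and Plin2 held the first places, with medians over the 5 libraries of 282 and 205 TPM, and they exchanged places between libraries. Mgll and Cideb followed with medians of 75.8 and 80.3 TPM, then Pnpla2 with 38.4 and Plin5 with 29.5 TPM, and each of these pairs also exchanged places between libraries. Cidec was seventh in all 5 libraries with a median of 4.75 TPM, Plin4 was eighth in all 5 with 2.09 TPM, and Cidea and Pnpla3 shared the last places with 1.62 and 1.47 TPM.

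G0s2 encodes the small inhibitor of ATGL, and its difference had the smallest p of the 10 genes. It lies on chromosome 1 from 193272161 to 193273217 on the minus strand of GRCm38, with the identifier ENSMUSG00000009633. G0s2 had 136, 116 and 134 CPM in knockout livers, against 66.6 and 87.8 CPM in control livers. The lowest knockout library was thus above the highest control library. The group means were 129 ± 11.0 CPM in knockout livers (SD, n = 3) and 77.2 ± 15.0 CPM in control livers (SD, n = 2), and the ratio of the means was 1.67. G0s2 had a log2 fold change of 0.74 (SE 0.16) with a 95% interval of 0.35 to 1.13 and an unadjusted edgeR p of 0.00319, the 31st smallest of 16441. Its adjusted p was 1.00 by edgeR and 0.0654 by DESeq2. In fits added after the data were seen, DESeq2 called G0s2 without knockout replicate 2 (adjusted p 0.0342), where it called 0.321% of all genes. Without knockout replicate 3 the DESeq2 adjusted p was 0.182, and without knockout replicate 1 G0s2 was not called either. The edgeR log2 fold change was 0.55 without control replicate 1 and 0.95 without control replicate 3, each fit with a single control library.

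Pnpla2, the lipase that G0S2 inhibits, differed little between the groups. Pnpla2 had 54.5, 53.9 and 62.5 CPM in knockout livers and 61.1 and 60.7 CPM in control livers, and the groups overlapped. It was the 1 gene of the 10 with a fitted value below 0, a log2 fold change of -0.10 (SE 0.12), and its 95% interval of -0.38 to 0.18 leaves room for a fall or a small rise. Within each library the TPM of G0s2 was 8.67, 7.46 and 7.42 times that of Pnpla2 in the knockout livers, against 3.78 and 5.02 times in the control livers. These ratios did not overlap between the groups, and no test was made of them. Since Pnpla2 differed little, they mostly repeat the difference in G0s2, and the share of other gene pairs without overlap was not computed. The ratio of Abhd5, the activator of ATGL, to Pnpla2 was 0.361, 0.398 and 0.311 in knockout livers and 0.327 and 0.353 in control livers, so it overlapped. Pnpla2 lies on chromosome 7, 141455198 to 141460743.

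Mgll encodes the lipase that releases the last fatty acid from monoacylglycerol. It lies on chromosome 6 from 88724412 to 88828360 on the plus strand. Mgll had 273, 229 and 209.7 CPM in knockout livers, against 126 and 185 CPM in control livers. All knockout libraries were above both controls, but the controls differed from each other by a factor of 1.46, more than the factor of 1.30 between the highest and lowest knockout libraries. Mgll had a log2 fold change of 0.61 (SE 0.21), with a 95% interval of 0.11 to 1.11 and an unadjusted edgeR p of 0.0236. The fold change was 0.36 without control replicate 1 and 0.91 without control replicate 3. DESeq2 called it only without control replicate 3 (adjusted p 0.0232), a fit that called 0.878% of all genes and left a single control library. The antisense gene Gm26588 overlaps 167 exon bases of Mgll and had 367, 394 and 397 counts in knockout livers, against 210 and 336 counts in control livers. The sources used here do not give the strand setting of the counting, so reads from such overlapping pairs cannot be told apart.

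Pnpla3, a relative of Pnpla2 found on droplets and known to respond to feeding, had the largest fitted difference of the 10 genes and the widest interval. Pnpla3 had 4.78, 11.1 and 2.22 CPM in knockout livers and 3.04 and 1.02 CPM in control livers. Knockout replicate 2 stood highest, knockout replicate 3 lay between the controls, and the controls themselves differed by a factor of 3.00. Pnpla3 had a log2 fold change of 1.56 (SE 0.75), with a 95% interval of -0.22 to 3.35, and it ran from 0.78 without knockout replicate 2 to 2.56 without control replicate 1. The gene is on chromosome 15, 84167816 to 84189512.

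Cidec, which drives the growth of large droplets in adipocytes and fatty hepatocytes, was higher in every knockout library. It had 9.53, 9.65 and 4.81 CPM in knockout livers, against 3.45 and 4.60 CPM in control livers. Knockout replicate 3 was only just above the higher control, whereas replicates 1 and 2 were about level with each other and well above it. For Cidec the log2 fold change was 0.99 (SE 0.34), with a 95% interval of 0.18 to 1.80 and an unadjusted edgeR p of 0.0240. DESeq2 called Cidec only without knockout replicate 3 (adjusted p 0.00373), where it called 0.443% of all genes. Cidec lies on chromosome 6, 113424634 to 113435760, minus strand.

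The promoters of the 3 genes that lay above the controls on both scales, CPM and TPM, are shown for their sequence context. The share of all genes above the controls in TPM, or on both scales, was not computed. Each promoter is given as the 250 bases before the RefSeq start on GRCm38.p6, 5′ to 3′ on the gene's strand. Capitals mark matches, on either strand, to the motifs searched: CACGTG, an E-box bound by clock and carbohydrate-responsive factors, GGGCGG, the GC box, TATAAA, the TATA box, and CCAAT, the CCAAT box. The last motif was AGGNCA repeated after 1 spacer base, the kind of direct repeat that PPAR and its partner RXR bind. No marked motif overlaps another.
G0s2, chr1:193273189-193273438, minus strand: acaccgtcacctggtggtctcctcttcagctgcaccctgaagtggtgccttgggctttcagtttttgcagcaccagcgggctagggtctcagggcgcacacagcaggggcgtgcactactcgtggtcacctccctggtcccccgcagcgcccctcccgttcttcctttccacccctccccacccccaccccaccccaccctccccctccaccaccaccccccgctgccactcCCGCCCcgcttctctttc
Mgll, chr6:88724162-88724411, plus strand: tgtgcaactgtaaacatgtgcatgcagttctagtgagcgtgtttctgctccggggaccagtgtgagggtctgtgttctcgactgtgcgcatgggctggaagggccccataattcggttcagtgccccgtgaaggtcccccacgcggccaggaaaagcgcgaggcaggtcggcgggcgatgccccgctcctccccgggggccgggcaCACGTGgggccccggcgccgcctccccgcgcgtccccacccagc
Cidec, chr6:113435761-113436010, minus strand: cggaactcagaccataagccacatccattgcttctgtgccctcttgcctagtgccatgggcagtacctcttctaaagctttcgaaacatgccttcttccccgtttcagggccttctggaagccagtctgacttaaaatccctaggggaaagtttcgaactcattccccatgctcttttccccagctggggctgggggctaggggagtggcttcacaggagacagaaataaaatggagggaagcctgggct
The G0s2 stretch holds a GC box, the Mgll stretch an E-box from 44 to 39 bases before the start, and the Cidec stretch none of the 5 motifs. The RefSeq start of G0s2 lies 29 bases inside the span counted as G0s2. Its GC box, from 18 to 13 bases before that start, is therefore within the counted span. RefSeq windows of 250 bases before to 50 after a start were at hand for 9 of the 10 genes, 12 windows in all. The E-box was in 2 of these, those of Mgll and Plin2, and in 7.15% of the 32851 windows of all genes. The GC box was in 9 of the 12, beside 35.7% of all windows, CCAAT in 4 of 12, beside 37.4%, and TATAAA in 1, beside 13.6%. Mgll and Plin5 had more than 1 window each, so the 12 were not separate. The windows of Plin5 overlap and hold a GC box in common. The direct repeat was in none of the 12 and in 0.381% of all windows. These are matches of letters in short windows and say nothing of binding.

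**Figure D2:**
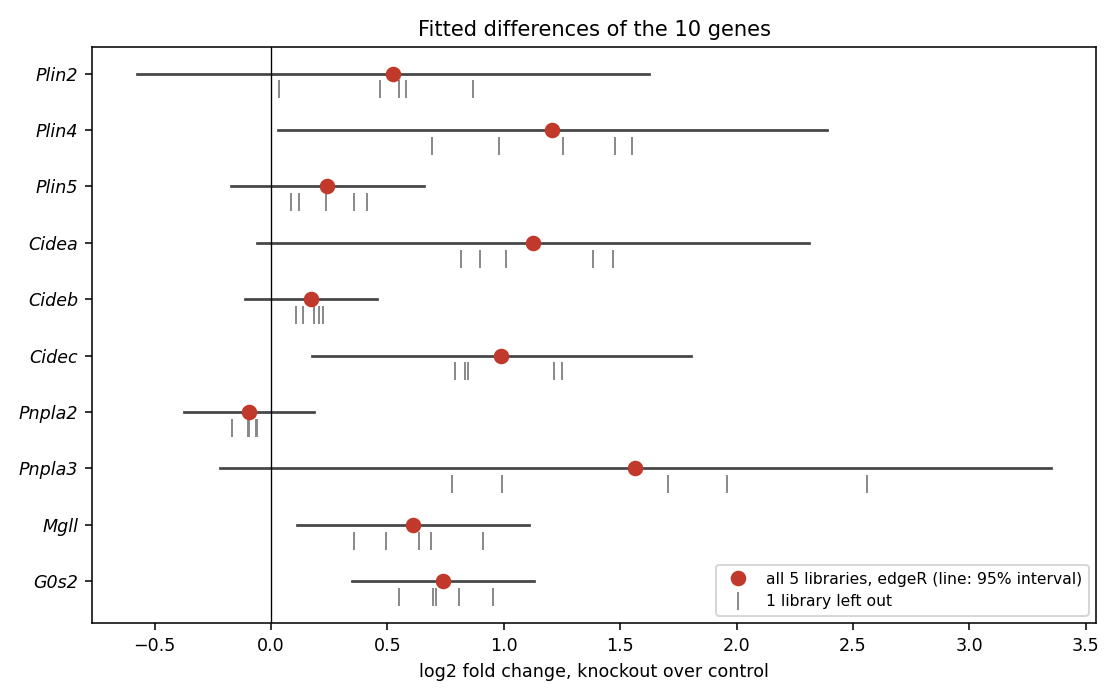
Log2 fold change, knockout over control (x axis), for each of the 10 genes; the point is the edgeR estimate from all 5 libraries, the line its 95% interval, and the short ticks the estimates with 1 library left out. G0s2, Mgll, Cidec and Plin4 have intervals above 0, and the ticks of Plin2 run from 0.03 to 0.87.

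Cidea, a CIDE protein typical of brown fat and of fatty liver, was scarce and split the knockout group. It had 70, 90 and 29 counts in knockout livers, or 2.28, 2.71 and 0.906 CPM, against 24 and 31 counts, or 0.753 and 1.05 CPM, in control livers. Knockout replicates 1 and 2 were above both controls, and knockout replicate 3 lay between them. The log2 fold change was 1.13 (SE 0.49), with a 95% interval of -0.06 to 2.31. An antisense transcript, B430212C06Rik, overlaps 20 exon bases of Cidea and had 27, 16 and 4 counts in knockout livers, against 7 and 8 in control livers. Cidea is on chromosome 18, 67343564 to 67367794.

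Cideb, the CIDE protein of normal hepatocytes that acts in the lipidation of very low density lipoprotein, differed by little. It had 57.9, 64.0 and 54.5 CPM in knockout livers and 53.6 and 50.8 CPM in control livers. The groups did not overlap in CPM, but they overlapped in TPM, with 86.4, 92.2 and 67.0 TPM in knockout livers and 80.3 and 61.3 TPM in control livers. The log2 fold change was 0.17 (SE 0.12), with a 95% interval of -0.11 to 0.45. The opposite-strand gene Nop9 covers 76.4% of the exon bases of Cideb as annotated in the table (chromosome 14, 55754045 to 55758458), so the Cideb values are uncertain.

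Plin2, the main perilipin of hepatocytes and a common measure of droplet content, varied more within the knockout group than between the groups. It had 464, 759.7 and 222 CPM in knockout livers, against 322 and 347 CPM in control livers. Knockout replicates 1 and 2 were above both controls and knockout replicate 3 was below both, a span of 3.43-fold among knockouts and 1.08-fold between controls. The log2 fold change was 0.53 (SE 0.46), with a 95% interval of -0.57 to 1.62, and it was 0.03 without knockout replicate 2 and 0.87 without knockout replicate 3. Plin2 lies on chromosome 4, 86648386 to 86670060.

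Plin4 and Plin5 are neighbours on the minus strand of chromosome 17, with 1797 bases between them. In CPM both were highest in knockout replicate 2 and lowest in control replicate 1, but knockout replicates 1 and 3 stood in opposite order. Plin4, a perilipin of white fat that coats small droplets, lies from 56100591 to 56109803 and had 12.4, 21.2 and 6.18 CPM in knockout livers, against 4.77 and 6.70 CPM in control livers. Knockout replicates 1 and 2 were above both controls, and knockout replicate 3 lay between them. Its log2 fold change was 1.21 (SE 0.49), with a 95% interval of 0.03 to 2.39 and an unadjusted edgeR p of 0.0457. It was 0.69 without knockout replicate 2 and 1.55 without knockout replicate 3. DESeq2 called Plin4 only without knockout replicate 3 (adjusted p 0.00359), where it called 0.443% of all genes. Plin5, the perilipin of oxidative tissues that links droplets to mitochondria, lies from 56111601 to 56117596 and had 27.8, 38.7 and 33.5 CPM in knockout livers, against 25.1 and 31.2 CPM in control livers. Here knockout replicate 1 lay between the controls in CPM. In TPM all knockout livers, with 29.6, 39.8 and 29.5, were above the controls, with 26.9 and 27.0. The share of all genes above the controls in TPM was not computed. Plin5 had a log2 fold change of 0.24 (SE 0.17), with a 95% interval of -0.17 to 0.66, and 0.09 without control replicate 1.

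The knockout libraries differed from each other across the set, and over the whole table as well. A chi-square per degree of freedom was taken over rows with at least 10 counts in the 2 libraries together. It is larger for more unlike counts, and rows of high counts weigh most in it. It was 44.5 between knockout replicates 1 and 2. Knockout replicate 3 was nearer to control replicate 3, at 49.4, than to knockout replicates 1 and 2, at 86.3 and 105.9. The 2 controls were the most unlike pair, at 226.9. Knockout replicate 2 was the highest of the 5 libraries for 7 of the 10 genes, knockout replicate 1 for 2 and knockout replicate 3 for 1. Relative to the mean log2 CPM of the controls, the median over the 10 genes was 0.84, 0.89 and 0.19 in knockout replicates 1, 2 and 3. Plin4, Cidea, Cidec and Pnpla3 had replicates 1 and 2 from 1.13 to 2.66 above the control mean on the log2 scale and replicate 3 at 0.13, 0.03, 0.27 and 0.33. For Pnpla3 the controls themselves lay at 0.79 and -0.79. G0s2 did not have this shape, with 0.83, 0.60 and 0.81 in the 3 knockout libraries, nor did Mgll, with 0.84, 0.58 and 0.46. Plin2 in knockout replicate 3 was at -0.59, the lowest value of any of the 10 genes in a knockout library.

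**Figure D3:**
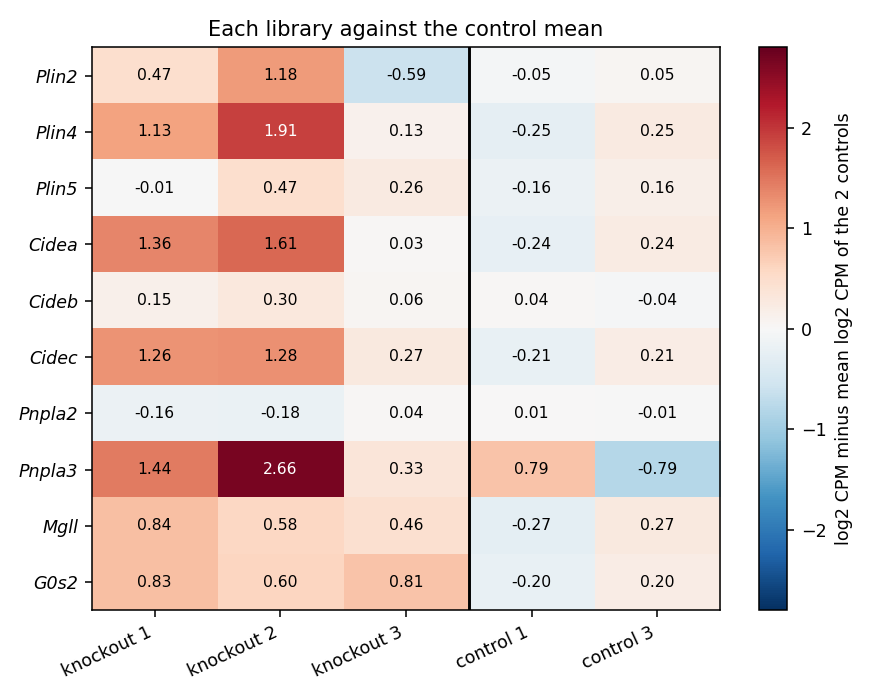
Each of the 10 genes (rows) in each library (columns, knockout replicates left of the control replicates), coloured by log2 CPM minus the mean log2 CPM of the 2 controls, with the value printed. Plin4, Cidea, Cidec and Pnpla3 are 1.13 to 2.66 above the control mean in knockout replicates 1 and 2 and 0.03 to 0.33 above it in replicate 3, whereas G0s2 is 0.60 or more above it in all 3.

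Summed per length, the families were made up mainly of a single gene each. Plin2 gave 79.6%, 80.6% and 66.9% of the TPM of the 5 perilipin genes in knockout livers, against 72.8% and 75.4% in control livers. Perilipin TPM summed to 370, 577 and 173 in knockout livers and to 282 and 236 in control livers, and the groups overlapped. Cideb gave 84.5%, 85.1% and 91.6% of CIDE transcripts in knockout livers, against 93.5% and 91.0% in control livers. Cidec and Cidea together were thus a larger share in knockout replicates 1 and 2 than in the controls. Knockout replicate 3 lay between the controls. The Cideb values are uncertain because of the overlap with Nop9, and so are these CIDE shares. Among Pnpla2, Pnpla3, Mgll and the hormone-sensitive lipase gene Lipe, Mgll gave 71.7%, 66.3% and 63.6% of the TPM in knockout livers, against 50.9% and 61.1% in control livers. Pnpla2 gave 24.1%, 26.3% and 31.9% in knockout livers, against 41.5% and 33.8% in control livers. The shares of both genes did not overlap between the groups, but shares of 1 sum are tied, so these are not separate differences. The TPM of Pnpla2 itself overlapped, with 40.2, 38.4 and 38.0 in knockout livers and 45.3 and 36.2 in control livers.

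**Figure D4:**
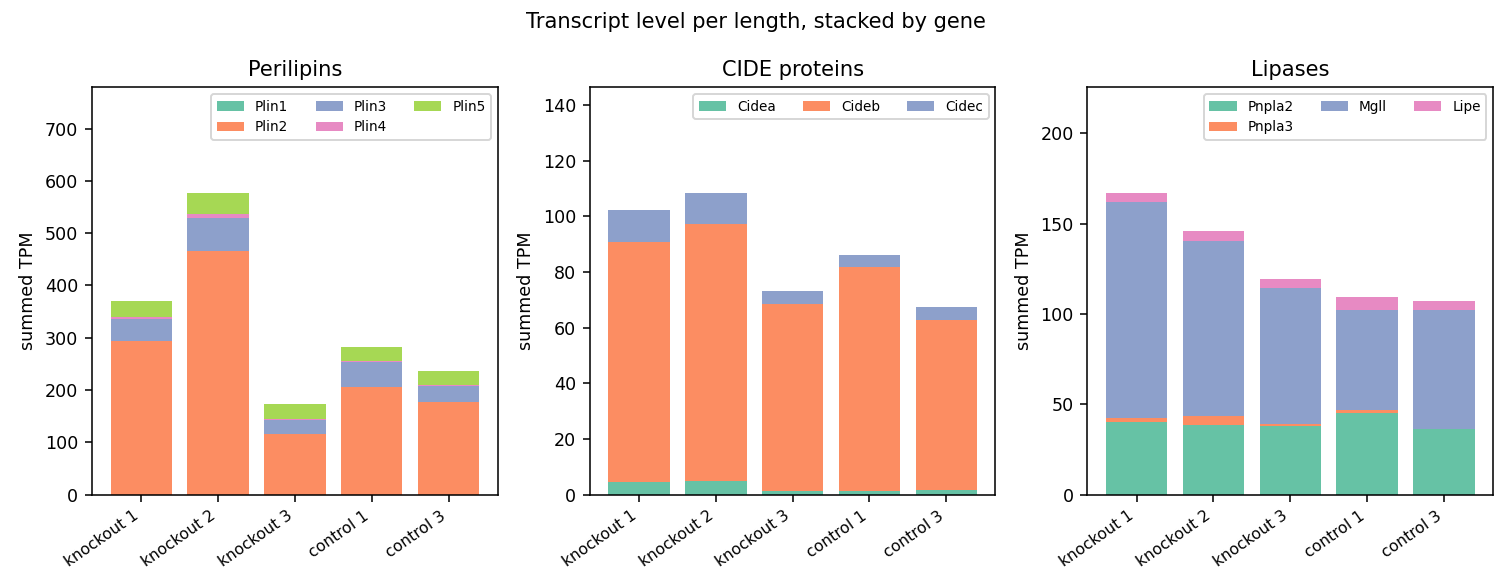
Summed TPM (y axis, from 0) of perilipins, CIDE proteins and lipases in each library, knockout replicates left of control replicates, stacked by gene. The lipase bars stand at 167, 146 and 119 TPM in knockout livers, against 109 and 107 TPM in control livers, and most of that difference is in Mgll.

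The lists of other droplet and lipolysis genes had lower median fold changes than the 10 genes, a difference that was not tested, and single genes in them spread in both directions. Of 21 other droplet protein genes that passed the filter, 15 were above 0 and 6 below, none passed the edgeR test, and the median log2 fold change was 0.15. The 3 with the smallest p were Cavin1, a caveolar coat gene also found at droplets, with -0.43 (SE 0.18), the sterol enzyme gene Nsdhl with 0.35 (SE 0.17) and the droplet dehydrogenase gene Hsd17b11 with 0.28 (SE 0.14). Of 19 genes in the list of other lipolysis and lysosomal lipase genes, 11 were above 0 and 8 below, and none passed. The median was 0.02, or -0.0021 with upper-quartile scaling. This list also held genes of fatty acid binding, glycerol handling and lysosomes that are not lipases. Its 3 genes of smallest p were the carboxylesterase gene Ces1d with 1.04 (SE 0.41), Fabp1, the liver fatty acid binding protein, with 0.42 (SE 0.17), and the monoacylglycerol hydrolase gene Abhd6 with 0.55 (SE 0.24). Lipe had a log2 fold change of -0.29 (SE 0.13). Pnpla5, a low-count relative of Pnpla2 and the largest fitted value in these lists, had 0.651, 1.57 and 0.125 CPM in knockout livers, against 0.345 and 0.0677 CPM in control livers, with a log2 fold change of 1.88 (SE 1.07). Fitm1, a gene of the droplet-forming FIT family, had 40.5, 38.4 and 13.5 CPM in knockout livers, against 10.6 and 22.0 CPM in control livers, and a log2 fold change of 0.92 (SE 0.52). The groups overlapped for both genes. Over all tested genes 52.1% were above 0, and the 4 lists set side by side here were chosen with earlier results of these data known.

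**Figure D5:**
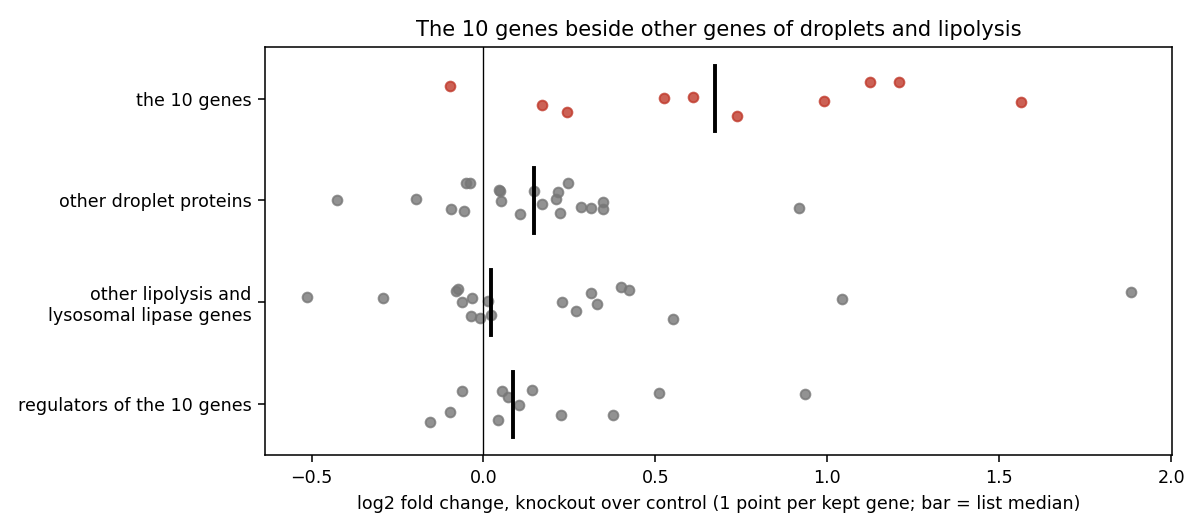
Log2 fold change, knockout over control (x axis), of every gene that passed the filter in the 10-gene set, the other droplet proteins, the other lipolysis genes and the regulators of the set; each point is a gene and the bar is the list median. The medians are 0.67, 0.15, 0.02 and 0.09, and the list of other lipolysis genes also holds genes that are not lipases.

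Transcriptional regulators known to control these genes showed no call. Of 12, 9 were above 0 and 3 below, with a median of 0.09. Ppargc1a, the coactivator of PPAR receptors, had a log2 fold change of 0.51 (SE 0.18). Pparg, the receptor that drives fat storage, had 19.7, 15.3 and 6.90 CPM in knockout livers, against 7.34 and 7.28 CPM in control livers. Knockout replicates 1 and 2 were thus above both controls and replicate 3 below both, with a log2 fold change of 0.94 (SE 0.41). Ppara, the receptor of fatty acid oxidation, had 211, 137 and 148 CPM in knockout livers and 152 and 163 CPM in control livers, so the groups overlapped. Srebf1, the regulator of fatty acid synthesis, had a log2 fold change of 0.38 (SE 0.28).

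Several of the 10 genes are also expressed by adipocytes, and adipocyte markers outside the set were measured beside them. Of 10 such markers, 6 had at most 3 counts in every library, among them Adipoq, Lep, Plin1, Retn and Ucp1, the last at 0 throughout. The 10 markers summed to 17.4, 24.0 and 16.8 CPM in knockout livers, against 15.7 and 15.9 CPM in control livers. The marker Adrb3 was the largest part of this sum in every library. It had 7.61, 15.7 and 12.2 CPM in knockout livers, against 8.596 and 9.58 CPM in control livers, so the groups overlapped. Cfd, the adipsin gene, had 2.08, 1.81 and 0.375 CPM in knockout livers and 0.408 and 0.542 CPM in control livers, whereas Fabp4 had 7.19, 6.03 and 3.94 CPM in knockout livers and 6.31 and 5.62 CPM in control livers.

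Markers of other liver cells, some of which also store lipid, were on balance lower in fitted value. Stellate cell markers, from the cells that store retinyl esters in droplets, were below 0 for 9 of 10 genes with a median of -0.11. They summed to 291, 249 and 204 CPM in knockout livers and to 274 and 283 CPM in control livers. Kupffer cell and macrophage markers were below 0 for 9 of 10 with a median of -0.16, and summed to 345, 287 and 291 CPM in knockout livers and 299.8 and 388 CPM in control livers. Endothelial markers were below 0 for 10 of 10 with a median of -0.44, and summed to 311, 245 and 223 CPM in knockout livers and 292 and 357 CPM in control livers. Cholangiocyte markers were below 0 for 5 of 7, and hepatocyte markers for 6 of 10. No marker of these lists passed the edgeR test, and the part of these cells in the values of the 10 genes was not tested.

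The genes whose profile over the 5 libraries was most like that of Pnpla3, the gene of the largest fitted difference, were Stap1, Gngt1 and Ntrk2. Their root mean square distances from it, on log2 CPM centred per gene, were 0.423, 0.423 and 0.462 among 11543 protein-coding genes with a mean of at least 1 CPM. Ntrk2 had 8.20, 16.1 and 3.75 CPM in knockout livers, against 2.82 and 2.71 CPM in control livers, and Stap1 had 9.08, 10.2 and 2.53 CPM, against 4.89 and 2.07 CPM. With 5 libraries many profiles are alike, and this is a description of these samples.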

How the data were processed

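RNA from whole mouse livers was sequenced on a HiSeq2500 from TruSeq libraries, per the labels' protocols, which name 3 adult mice per group. The authors deposited raw read counts per gene, with the summed exon length per gene as another column, per the file headers. FastQC, Trimmomatic 0.33, Subread 1.4.6-p4, featureCounts 1.4.6-p4 and the builds mm10 and GRCm38 are named in the submitters' processing notes. The strand setting, the handling of multiple matches and the annotation release used for counting were not given in the sources used here. Of 46983 rows, 46488 had a GENCODE vM21 symbol. The 37 mitochondrial rows held 0 counts.

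Control replicate 2, identical to replicate 1, was left out. Rows were filtered with filterByExpr, scaled by TMM and tested with edgeR's quasi-likelihood test, group as the only term, at an adjusted p of 0.05 over 16441 genes. Standard errors and 95% intervals came from the F statistic. CPM used TMM-scaled library totals, and TPM used the deposited exon lengths. A count of 3 corresponds to 0.0891 to 0.101 CPM over the libraries, and this covers counting error only. The test was checked on simulated counts. The genes named besides the 10 were Mtdh, the 3 of smallest p in the pathway and regulator lists, and the 3 nearest profiles. Abhd5, Lipe, Pnpla5, Fitm1, Ppara, the fat markers Adipoq, Adrb3, Cfd, Fabp4, Lep, Plin1, Retn and Ucp1 and the genes overlapping the set were named after their values were seen, and other marker lists are given by counts and sums. Ldaf1 had no match. The 10 genes and all lists were chosen with earlier results of these data known. Promoter sequences are RefSeq's, GRCm38.p6. The alternatives were DESeq2, limma-voom, 2 other scalings, no filter, a robust prior, all 6 columns, a replicate block and each library left out, and DESeq2 with each library left out was added after the data were seen. The tools were edgeR 4.0.16, DESeq2 1.42.0 and limma 3.58.1 in R 4.3.3, with Python 3.11.15.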

Additional observations from a re-analysis of the deposited data

How the results depend on the processing

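Over 18 alternative fits, 9 of the 10 genes kept the sign of their log2 fold change. The exception was Plin2, at -0.061 with the replicate number as a block, where Plin4 was at 0.63. Same-numbered libraries deviated together only weakly (correlation over genes 0.06 for number 1 and 0.155 for number 3), beside 0.11 for knockout replicate 2 with control replicate 1. With 2 controls, each value recurs with the opposite sign for the other control. The numbers are not known to pair the mice, and the mouse behind the shared control column is unknown. The block called 0 genes over all, where the fit without it called 1, and 0 of the 10. The count over all genes was 19 by DESeq2, 3 without the low-count filter, and 1 to 6 with each library left out in edgeR. With a library left out, DESeq2 called 6 (knockout replicate 1), 49 (knockout replicate 2), 72 (knockout replicate 3), 27 (control replicate 1) and 147 genes (control replicate 3). Of the 10, edgeR called 0 with each library left out and DESeq2 0 to 2, the 2 being Plin4 and Cidec without knockout replicate 3 or Mgll and G0s2 without control replicate 3. The median of the 10 genes was 0.50 to 0.93 over the fits, the ends being DESeq2 without control replicates 1 and 3, against 0.67 with all libraries and a pooled SD between libraries of 0.35. The median of the other droplet proteins was 0.12 with upper-quartile scaling, 0.10 by limma-voom and 0.17 with the block, and 0.13 to 0.17 with a library left out in edgeR and 0.12 to 0.17 in DESeq2. The median of the other lipolysis genes was 0.18 with the block, -0.0021 with upper-quartile scaling, 0.0088 to 0.17 with a library left out in edgeR, and 0.0048 to 0.17 in DESeq2, with 0.14 without knockout replicate 3. With a single control library left, it is assumed to vary like the knockout libraries. With 3 libraries against 2, the 95% intervals of Plin2, Plin4, Cidea and Pnpla3 span more than 2 units of log2, so differences of the size seen in Plin2 could not be told from 0.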
